A study of Mus musculus with 12 samples.

Results

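The genes of mitochondrial respiratory complexes II to V were followed in the whole blood of mice kept at normoxia, in chronic hypoxia or in recovery from it. Members were chosen by a gene symbol rule, with earlier results of these data known. The rule took Sdha, Sdhb, Sdhc, Sdhd, Cycs and every gene whose symbol starts with Uqcr, Uqcc, Cox4, Cox5, Cox6, Cox7, Cox8 or Atp5. This gave 50 of the 18194 genes that have a probe set naming a single gene, read by 101 of the 45101 probe sets of the Affymetrix Mouse 430 2.0 array. By complex, 4 genes belong to complex II, 8 to complex III, 3 to the assembly of complex III, 1 is cytochrome c, and 17 each belong to complex IV and complex V.

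The mice were normal C57Bl/10 animals aged 3 months, with 4 in each group and 1 mouse per array. The NX group breathed 21% oxygen for 14 days. The CH group was kept for 14 days in normobaric chronic hypoxia, in which oxygen was brought down from 21% to 8%. The REC group had the same 14 days of hypoxia and then 14 days of recovery at 21% oxygen. CH against NX shows the state at the end of hypoxia, REC against NX what differed after the return to normal oxygen, and CH against REC the distance between the exposed groups, which are different mice. By these schedules REC mice spent longer in the experiment than NX or CH mice. Time in the experiment, and age with it, therefore cannot be told apart from recovery. A figure legend of the paper gives schedules that differ from these. RNA came from unfractionated blood, so a higher or lower signal can reflect more or fewer cells of a type or more or less RNA per cell, and these cannot be told apart here.

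As background, complexes II, III and IV pass electrons down the inner mitochondrial membrane to oxygen, and complex V, the ATP synthase, uses the resulting proton gradient to make ATP. Complex II also works in the citrate cycle. Complex II is encoded wholly in the nucleus, whereas complexes III, IV and V also need core proteins made from mitochondrial DNA, which are not analysed here. Mature red cells have no mitochondria, while reticulocytes, their immediate precursors in the blood, still carry some and clear them as they mature. White cells and platelets keep theirs.

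Signals are on a linear scale that sets each array to the same trimmed mean of 150, so each value is relative to the other transcripts on its array. Changes are given as log2 differences of (signal + 16) between group means, with their standard error. A gene was called when its Benjamini-Hochberg adjusted p from limma was under 0.05 over all probe sets and its change was at least 2-fold. The scale matters for these genes. The 18 probe sets of the hybridization controls, which are normally added in equal amount to every array, were higher by 1.61 in CH and differed by -0.81 in REC against NX on the log2 scale. The CH arrays were the least alike, with correlations over all probe sets of 0.824 to 0.913 within CH, 0.910 to 0.977 within NX and 0.955 to 0.975 within REC. The 3'/5' signal ratio of actin, a sign of RNA quality, averaged 1.71 ± 0.10 for NX mice, 2.00 ± 0.09 for CH mice and 1.61 ± 0.09 for REC mice (SD, n = 4).

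Markers of blood cell types, from lists also chosen with earlier results of these data known, moved with the groups. Of 10 erythroid marker genes measured, 9 were called higher in CH against NX and 6 were called lower in REC, and their summed signal was 22731 to 34153 in NX, 118775 to 188596 in CH and 5484 to 16549 in REC. The single-gene probe set of the alpha globin gene Hba-a1 read only 1.16 to 25.4 on the 12 arrays. All 8 T cell markers and 6 of 7 B cell markers were called lower in CH, and none of either list was called in REC, where 1 B cell marker was lower and 1 T cell marker higher at an unadjusted p under 0.05. The T cell sum was 4802 to 6630 in NX, 1089 to 4332 in CH and 8710 to 9234 in REC, and the B cell sum 16769 to 20793, 2067 to 11714 and 20106 to 23465. Of 6 NK cell markers, 1 was called higher and 4 lower in CH and 4 higher in REC, with sums of 3043 to 5189, 1331 to 2683 and 8543 to 13695. No marker of 8 for neutrophils or 7 for platelets was called in either group against NX by limma, and at an unadjusted p under 0.05 there was 1, a platelet marker lower in CH. Of 7 monocyte markers, 1 was called lower in CH and none in REC. At that p 4 were lower in CH and 2 were higher in REC. The neutrophil sum was 18480 to 41760 in NX, 15059 to 52620 in CH and 18762 to 25983 in REC, the monocyte sum 7335 to 11639, 3537 to 11923 and 8463 to 12336, and the platelet sum 27246 to 49120, 32181 to 56092 and 24403 to 39005. The part of these shifts in the changes of the respiratory genes was not tested.

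In CH, many subunit genes of complexes III, IV and V were up-regulated relative to the rest of the array, while Atp5g2, Atp5g3, Cox5a, Sdhc, Uqcc1 and Uqcc3 were down-regulated. Against NX, 27 of the 50 members were called higher and 6 lower. Over all genes, 9.08% were called higher and 19.5% lower. The median change of the members was 1.31, beside 0.05 over all genes. With dim probe sets left out, the median over all genes was -0.41 in CH against NX and 0.04 in REC against NX. It was -0.49 in CH against REC. The shares of all genes called without dim probe sets are not given here. In 33 members every CH array was above every NX array, and in 5 every CH array was below, where 11% and 21.4% of all genes were so placed. After recovery, 13 members were called higher than in NX and 0 lower, where 2.5% of all genes were higher and 1.79% lower. At an unadjusted p under 0.05 from limma, 28 were higher and 1 was lower, beside 11% and 7.04% of all genes, and the ordinary one-way model without moderation also called 0 lower. The median change of the members in REC was 0.74, beside -0.02 over all genes, and 44 of the 50 changes were positive. In 27 members every REC array was above every NX array and in 1 every REC array was below, beside 12.6% and 8.88% of all genes. The CH and REC comparisons share the NX arrays. CH against REC directly gave 17 members higher and 9 lower, with 12.3% and 23.3% of all genes, and a median of 0.39 beside 0.07. CH lay wholly above REC in 20 members and wholly below in 10, where 15.3% and 24.8% of all genes did.

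When arrays were scaled on the hybridization controls instead, the CH calls against NX were 5 members up and 14 down, with a median of -0.21 beside -0.84 over all genes. The 5 that stayed higher were Atp5b, Cox4i1, Cox6b2, Cox7a2 and Uqcrh, and all 6 lower calls were kept. On that scale 37 members were higher in REC than in NX, and CH against REC gave 2 members up, Atp5b and Cox6b2, and 33 down. The medians over all genes there were 0.57 in REC against NX and -1.50 in CH against REC. The shares of all genes called on that scale are not given here, so these counts cannot be read as particular to the members. Between CH and NX, 21 members went from a positive to a negative change, which ran from -1.34 for Sdhb to -0.05 for Atp5pb on that scale. Of these, 9 had been called higher and were no longer called (Atp5d, Atp5e, Atp5j, Atp5md, Atp5o, Atp5pb, Cox6b1, Cox8c and Cycs), and 4 that had not been called were now called lower (Atp5c1, Sdhb, Uqcrb and Uqcrfs1). Between CH and REC, 28 members went from positive to negative, and the calls of Atp5a1, Atp5k and Uqcrq reversed from higher to lower, at -1.23, -1.18 and -1.08. Quantile normalization gave 22 called members in CH. Of the 33 calls, 20 were kept and 13 were lost, among the latter Atp5g2, Atp5h, Cox6a1, Cox6b1, Cox7a2, Cox7a2l and Uqcc3. The calls of Uqcr10 and Uqcrc1 were new. Higher therefore means higher relative to the rest of the array, unless both scales are named.

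**Figure D1:**
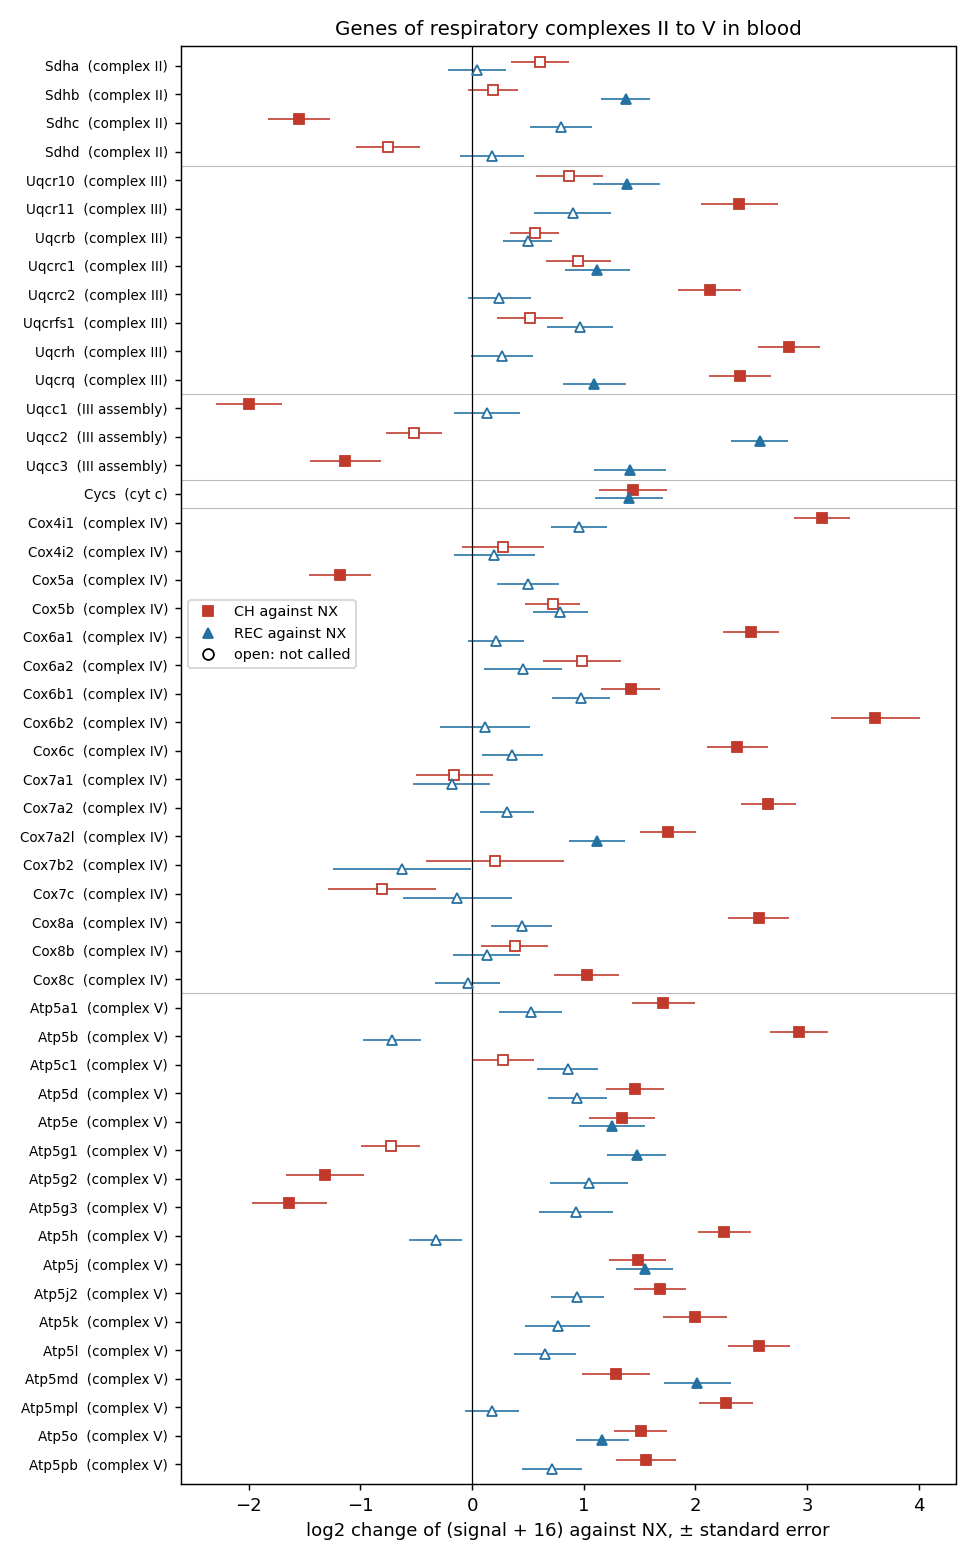
Log2 change of (signal + 16) against NX with its standard error for all 50 genes, ordered by complex, in CH (red squares) and in REC (blue triangles), with filled symbols for called genes. The CH changes run from -2.00 for Uqcc1 to 3.61 for Cox6b2, and the REC changes from -0.72 for Atp5b to 2.58 for Uqcc2.

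Sorted by both calls, 20 members were higher in CH and not called in REC, 7 were higher in both, 5 were higher in REC alone, 5 were lower in CH alone and 12 were called in neither. The shares of all genes in these joint classes are not given here, and both calls share the NX arrays. The counts therefore describe the members only. The 7 genes higher in both were Atp5e, Atp5j, Atp5md, Atp5o, Cox7a2l, Cycs and Uqcrq. Uqcc3 was lower in CH and higher in REC. The 12 genes called in neither were Atp5c1, Cox4i2, Cox5b, Cox6a2, Cox7a1, Cox7b2, Cox7c, Cox8b, Sdha, Sdhd, Uqcrb and Uqcrfs1. Of these, Cox4i2, Cox7a1 and Cox8b were dim, with every group mean signal under 50, and nothing can be read from their changes.

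**Figure D2:**
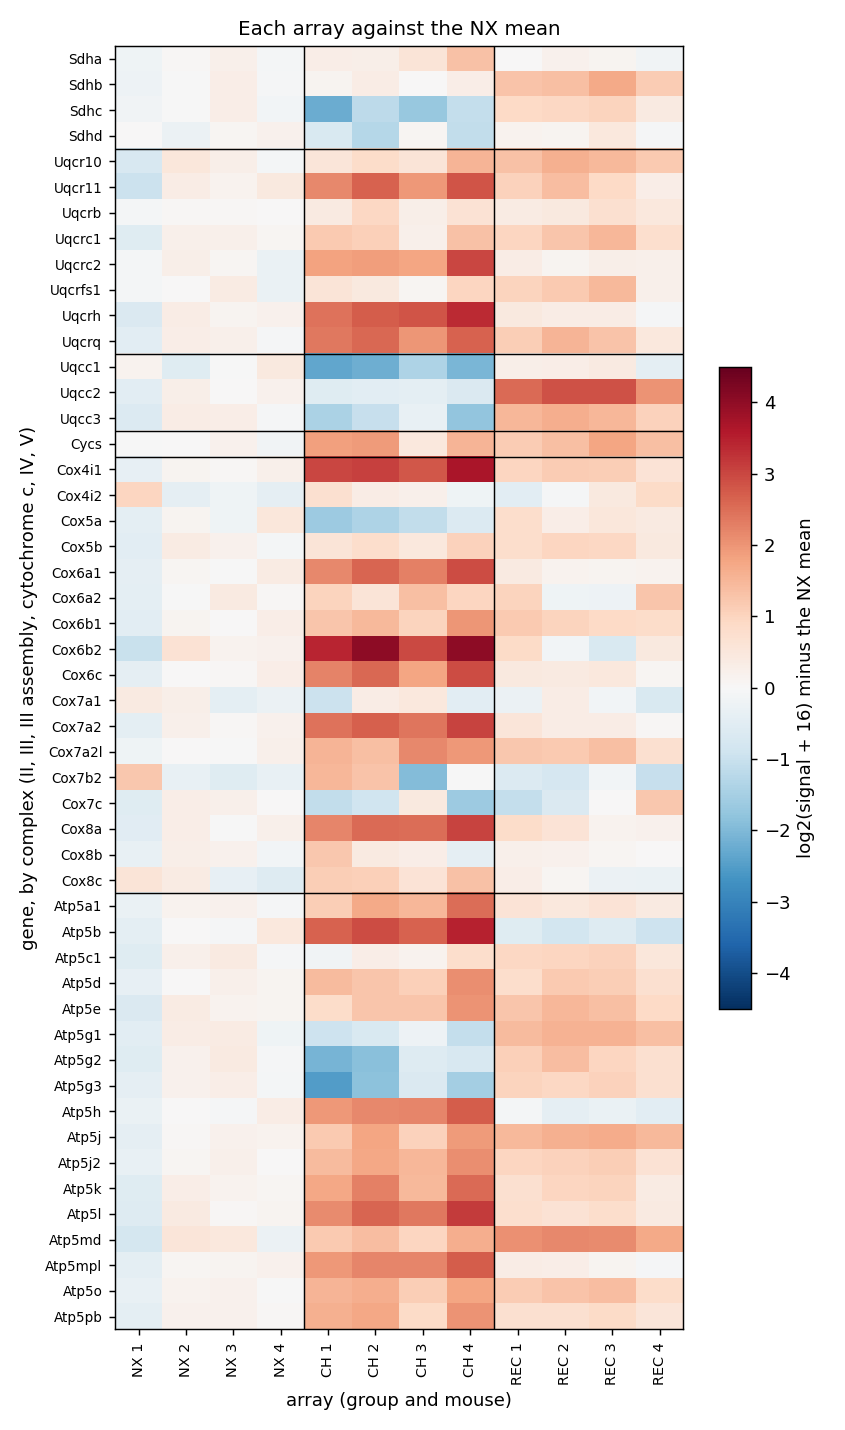
Log2(signal + 16) of each of the 50 genes (rows, by complex) on each of the 12 arrays (columns), minus the mean of the 4 NX arrays; red is above that mean and blue below. The CH columns hold red and blue rows side by side, with the ring genes Atp5g1, Atp5g2 and Atp5g3 blue in CH and red in REC.

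Succinate dehydrogenase, complex II, had 1 of its 4 genes called lower in CH and 0 called higher, and at an unadjusted p under 0.05 had 2 lower and 1 higher, where 28.4% and 17.8% of all genes passed that limit. Sdhc, a membrane anchor that holds the complex in the inner membrane, read 178, 202, 251 and 185 on the NX arrays, 31, 79.5, 50.5 and 87.5 on the CH arrays and 386, 396, 418 and 274 on the REC arrays. All CH values lay below all NX values, and all REC values above them. The CH change was -1.55 ± 0.28 (adjusted p = 0.000817), and that in REC, 0.80 ± 0.28 (adjusted p = 0.123), was not called. A second, dimmer probe set of Sdhc was not called in CH, with 106 ± 36.9 in NX and 107 ± 19.3 in CH (SD, n = 4) and a change of 0.05 ± 0.26 (adjusted p = 0.915). Sdhd, the other anchor, read 563, 459.8, 595 and 638 in NX, 343, 222, 592 and 248 in CH and 626, 619, 779 and 538 in REC. The groups overlapped, and its changes of -0.75 ± 0.29 (adjusted p = 0.0659) in CH and 0.18 ± 0.29 (adjusted p = 0.83) in REC were not called. A second, dimmer probe set of Sdhd was called lower in CH, at -1.50 ± 0.37 (adjusted p = 0.0073), with 294 ± 25.2 in NX and 117 ± 109 in CH (SD, n = 4).

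Neither catalytic subunit of complex II was called in CH. Sdha, the flavoprotein that oxidises succinate, read 1122, 1319, 1519.6 and 1207 in NX, 1565, 1533, 1919 and 3238 in CH and 1305, 1454, 1414 and 1160.3 in REC, and its changes of 0.61 ± 0.26 (adjusted p = 0.0972) and 0.05 ± 0.26 (adjusted p = 0.96) were not called. Another bright Sdha probe set read 0.13 ± 0.23 in CH (adjusted p = 0.715). Its dim probe sets, with NX means of 68.0 and 22.8, lay wholly below NX in CH. Their changes of -1.07 ± 0.40 (adjusted p = 0.0595) and -0.91 ± 0.27 (adjusted p = 0.0229) were not called. The former was called lower in CH than in REC, at -1.33 ± 0.40 (adjusted p = 0.0184). Sdhb, the iron-sulfur subunit, read 329.6, 387, 485 and 371 in NX, 421, 495, 394 and 481 in CH and 973, 1020.3, 1302 and 887 in REC. NX and CH overlapped, and every REC value was above both. The change was 0.19 ± 0.22 (adjusted p = 0.57) in CH and 1.37 ± 0.22 (adjusted p = 0.00346) in REC, the second being called. With hybridization control scaling the CH change of Sdhb turned to -1.34 and was called. CH was below REC by call for Sdhb, at -1.19 ± 0.22 (adjusted p = 0.000794), and for Sdhc, at -2.35 ± 0.28 (adjusted p = 1.63e-05).

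In complex III, which takes electrons from ubiquinol to cytochrome c, 4 of 8 Uqcr genes were called higher in CH and 3 in REC, with none lower. Cyc1, the gene of cytochrome c1 in this complex, lies outside the symbol rule. It did not move with the Uqcr genes called higher in CH, and its values are given with the lists below. Uqcrh, the hinge protein beside cytochrome c1, read 2517, 5039, 4296 and 4563 in NX, 21876, 26146, 28025 and 40986 in CH and 5381, 5067, 4994 and 3821 in REC. CH stood clear of the other groups, which overlapped. Its change was 2.84 ± 0.28 (adjusted p = 8.52e-06) in CH and 0.27 ± 0.28 (adjusted p = 0.701) in REC. Uqcrq, a small subunit, read 189, 338, 317 and 262 in NX, 1461, 1683, 1129 and 1803 in CH and 599, 810.0, 673 and 385 in REC, so that the 3 groups did not overlap. It was higher by 2.40 ± 0.28 (adjusted p = 3.24e-05) in CH and by 1.10 ± 0.28 (adjusted p = 0.0369) in REC. Uqcr11, another small subunit, read 120.1 to 350.3 in NX and 1009.8 to 1887 in CH, a change of 2.39 ± 0.34 (adjusted p = 0.000178), and was not called in REC at 0.90.

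Of the core proteins of complex III, Uqcrc2 was called in CH and Uqcrc1 was not, a difference that was not tested. Uqcrc2 read 1399, 1784, 1578 and 1206 in NX and 5214, 5503, 5152 and 12069 in CH, a change of 2.13 ± 0.28 (adjusted p = 9.12e-05), with CH replicate 4 far above the other CH mice. REC values of 1612 to 1883 overlapped NX. Uqcrc1, its partner, changed by 0.95 ± 0.29 (adjusted p = 0.0239) in CH, just under 2-fold, and by 1.12 ± 0.29 (adjusted p = 0.0397) in REC. Uqcr10, a small subunit, had the same order of group means, with 246 to 602 in NX, 615 to 1224 in CH and 963 to 1284 in REC, and changes of 0.87 ± 0.30 (adjusted p = 0.0418) and 1.38 ± 0.30 (adjusted p = 0.0167). The Rieske iron-sulfur gene Uqcrfs1 and the small subunit Uqcrb were not called in CH, REC or CH against REC, at 0.52 and 0.56 in CH.

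The 3 Uqcc genes, whose products help to make and stabilise the mitochondrially encoded cytochrome b of complex III, all had negative changes in CH. Uqcc1 read 110.1, 61.6, 95.9 and 137 in NX, 6.27, 8.83, 27.2 and 11.7 in CH and 122, 126, 133 and 67.3 in REC. All CH values were below NX, at -2.00 ± 0.30 (adjusted p = 0.000222), and REC, at 0.13, overlapped NX. Uqcc2, its binding partner, read 74.4, 136, 112 and 129.8 in NX, 71.5, 75.3, 77.7 and 65.2 in CH and 719, 904, 912 and 501 in REC. In CH it was not called, at -0.52 ± 0.26 (adjusted p = 0.149), while in REC every value was above NX, with 2.58 ± 0.26 (adjusted p = 0.000274). Uqcc3 read 159, 321, 314 and 239 in NX, 83.4, 115, 196 and 61.4 in CH and 727, 813, 728 and 530.4 in REC, which is -1.13 ± 0.32 (adjusted p = 0.0159) in CH and 1.41 ± 0.32 (adjusted p = 0.0211) in REC. CH overlapped NX through CH replicate 3, and REC was above NX on every array. The CH call of Uqcc3 was lost without NX replicate 2 or 3 or CH replicate 4. Between CH and REC, all 3 were called lower in CH, at -2.13 for Uqcc1, -3.10 for Uqcc2 and -2.55 for Uqcc3.

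Cycs encodes somatic cytochrome c, the carrier between complexes III and IV. Its brightest probe set read 479, 487, 551 and 431 in NX, 1789.7, 1873, 675 and 1426 in CH and 1100.0, 1263, 1715 and 1252 in REC. Both exposed groups lay wholly above NX and overlapped each other, at 1.44 ± 0.30 (adjusted p = 0.00261) in CH and 1.41 ± 0.30 (adjusted p = 0.0164) in REC. The probe sets of Cycs did not move together. A second one was also higher in CH, at 1.11 ± 0.28, whereas another read 315 to 475 in NX, 172 to 229 in CH and 649 to 803 in REC. The latter was below NX in CH by -0.92 ± 0.22 (adjusted p = 0.0062), short of 2-fold, and below REC by -1.81 ± 0.22 (adjusted p = 2.43e-05). The direction of Cycs in CH thus depends on the probe set, and with hybridization control scaling the brightest read -0.14.

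In cytochrome c oxidase, complex IV, 9 of 17 genes were called higher in CH and 1 lower, and 1 was called higher in REC. The called genes included the widely expressed isoforms Cox4i1, Cox6a1, Cox6b1, Cox7a2 and Cox8a. Cox7b is not among the members, so it could not be set beside Cox7b2. Cox4i1, the general isoform of the largest nuclear subunit, read 1088, 1557, 1468 and 1661 in NX, 11454, 12181, 10024 and 18187 in CH and 2805, 3172, 3083 and 2206 in REC, with no overlap between any of the groups. It was higher in CH by 3.13 ± 0.25 (adjusted p = 2.42e-06). Its REC change, 0.96 ± 0.25 (adjusted p = 0.0414), was just under 2-fold. Cox4i2, the isoform known from lung and from low-oxygen responses, was dim, with 33, 2.82, 5.82 and 2.72 in NX, 25.2, 15.1, 13.3 and 5.64 in CH and 1.95, 7.67, 17.9 and 29.5 in REC, and was not called in CH at 0.28 ± 0.36 (adjusted p = 0.613).

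Cox5a was the only complex IV member called lower in CH. It encodes a subunit on the matrix side of the enzyme, and read 3443, 5111, 4092 and 6618 in NX, 1506, 1762, 2157 and 3065 in CH and 8007, 5792, 6621 and 6248 in REC. Every CH value was below every NX value, at -1.18 ± 0.28 (adjusted p = 0.00517), and REC overlapped NX, at 0.50 ± 0.28 (adjusted p = 0.386). Cox5b, the neighbouring zinc-binding subunit, read 1039.7 to 1843 in NX, 1994 to 2952 in CH and 1953 to 2827 in REC, and was not called at 0.72 ± 0.25 (adjusted p = 0.0415) and 0.79 ± 0.25 (adjusted p = 0.0877). Cox5a and Cox5b are different subunits and not isoforms of each other.

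Among the subunits with tissue isoforms, Cox6b2 had the largest change of all 50 members in CH. It is the form known from testis, and read 414, 1327, 952 and 970.0 in NX, 9352, 13910.2, 6702 and 14034 in CH and 1540.5, 766, 518 and 1159 in REC. The CH values stood clear of both other groups, which overlapped. The changes were 3.61 ± 0.40 (adjusted p = 2.21e-05) in CH and 0.12 ± 0.40 (adjusted p = 0.933) in REC. Its general counterpart Cox6b1 was also higher in CH, at 1.42 ± 0.26 (adjusted p = 0.00105), with 1726 to 3004 in NX, 4821 to 9569 in CH and 4316 to 5518 in REC. The REC change of Cox6b1, 0.98 ± 0.26 (adjusted p = 0.0465), fell short of 2-fold.

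Cox6a1, the liver-type form, read 4155, 5896, 5406 and 7104 in NX, 25142, 34077, 26439.6 and 42661 in CH and 7369, 6189, 6102 and 6144 in REC, a change of 2.50 ± 0.25 (adjusted p = 9.26e-06) in CH. Its muscle counterpart Cox6a2 ran from 25.5 to 58.5 in NX and from 67.9 to 128 in CH, and was not called at 0.99 ± 0.35 (adjusted p = 0.0478). Cox7a2, the liver-type form of the next subunit, read 3494, 5631, 4939 and 5447 in NX, 26408, 30837, 25610.1 and 40058 in CH and 7066, 6029, 5984 and 4942 in REC, at 2.65 ± 0.24 (adjusted p = 5.49e-06) in CH. Its muscle counterpart Cox7a1 was dim, at 19.3 to 47.4 in NX and 8.31 to 50.1 in CH. Cox7a2l, which joins complexes III and IV into supercomplexes, was the only complex IV gene called in REC. Its signal was 1642 to 2194 in NX, 4849.8 to 8486 in CH and 3099 to 4817 in REC, with 1.75 ± 0.25 (adjusted p = 0.000156) and 1.12 ± 0.25 (adjusted p = 0.0189). Cox8a, the general form of a small membrane subunit, read 498 to 882 in NX and 3314 to 5962 in CH, at 2.57 ± 0.27 (adjusted p = 1.51e-05), and its muscle counterpart Cox8b was dim, at 7.19 to 18.6 and 6.0 to 51.

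The remaining genes of complex IV were Cox6c and Cox8c, called higher in CH at 2.38 and 1.03, and Cox7b2 and Cox7c, not called at 0.20 and -0.80. Cox8c, a testis form, read only 15 to 53.1 in NX and 55 to 99.4 in CH, and its call was lost without NX replicate 3 or 4 or CH replicate 4. Cox7c had CH values from 20.2 to 136, with CH replicate 3 above all NX mice and the other CH mice below them. Between CH and REC, 7 complex IV genes were higher in CH, of which Cox6b2 alone stayed so with hybridization control scaling, and Cox5a was lower, at -1.69 ± 0.28 (adjusted p = 0.000293).

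ATP synthase, complex V, held the most calls in CH, with 13 of 17 genes higher and 2 lower, and in REC 5 were higher. The catalytic head is built of alpha and beta subunits around a gamma stalk. Atp5b, the beta subunit that carries the active sites, read 2848, 3846, 3697 and 5377 in NX, 24428, 29430.0, 24388 and 42051 in CH and 2635, 2154, 2569 and 2024 in REC. CH lay above and REC below NX with no overlap, with 2.93 ± 0.26 (adjusted p = 4.53e-06) in CH, while the REC change of -0.72 ± 0.26 (adjusted p = 0.147) was not called. CH against REC gave 3.64 ± 0.26 (adjusted p = 1.49e-07), the largest increase of any member in that comparison. Atp5a1, the alpha subunit, was higher in CH at 1.71, and Atp5c1, the gamma subunit, was not called at 0.28 ± 0.27 (adjusted p = 0.487).

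Genes of the stalks and of the membrane part other than the ring were among those called higher in CH. Atp5l, the g subunit, read 632, 1243, 993 and 1022 in NX, 4212, 5827, 5010.0 and 8548 in CH and 1626, 1504, 1636 and 1252 in REC, at 2.57 ± 0.28 (adjusted p = 1.63e-05) in CH. Atp5h, the d subunit of the peripheral stalk, read 6034 to 9402 in NX, 28942 to 49189 in CH and 5336 to 6978 in REC, at 2.26 ± 0.24 (adjusted p = 1.49e-05) in CH. Atp5mpl, a small membrane subunit, read 1666 to 2596 in NX and 8829.8 to 15023 in CH, at 2.27 ± 0.24 (adjusted p = 1.55e-05). Atp5j, coupling factor 6, read 835, 1166, 1291 and 1261 in NX, 2579, 3903, 2302 and 4328 in CH and 3076, 3399, 3636 and 3132 in REC. CH and REC overlapped and both were above NX, at 1.48 ± 0.26 (adjusted p = 0.000677) and 1.54 ± 0.26 (adjusted p = 0.00392). Atp5md, a small subunit that links synthase dimers, read 284, 747, 712 and 417 in NX, 1169, 1329, 991 and 1579 in CH and 2165, 2299, 2269 and 1664 in REC, with no overlap between the groups, at 1.29 ± 0.30 (adjusted p = 0.00528) in CH and 2.02 ± 0.30 (adjusted p = 0.00238) in REC. The other 6 called genes, Atp5d, Atp5e, Atp5j2, Atp5k, Atp5o and Atp5pb, changed by 1.34 to 2.00 in CH.

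For the ring, 2 of its 3 genes were called lower in CH. Subunit c, which forms the proton-driven rotor ring, is made from 3 genes whose mature proteins are the same. Atp5g1 read 289, 518, 528 and 352 in NX, 207, 251, 345 and 185 in CH and 1111, 1255, 1231 and 1069 in REC. CH overlapped NX, at -0.73 ± 0.26 (adjusted p = 0.051), and was not called, while REC was above NX at 1.47 ± 0.26 (adjusted p = 0.00587). Atp5g2 read 399.5, 675, 774 and 564 in NX, 126, 148, 383 and 347 in CH and 1261, 1577, 1155 and 979 in REC. All CH values were below NX, at -1.32 ± 0.35 (adjusted p = 0.0107), and REC, at 1.04 ± 0.35 (adjusted p = 0.111), was not called although no value overlapped. Atp5g3 read 1752, 2679, 2869.8 and 2167 in NX, 389.9, 631, 1477 and 805 in CH and 4719, 4497, 4760.2 and 3873 in REC, with -1.64 ± 0.33 (adjusted p = 0.0021) in CH and 0.93 ± 0.33 (adjusted p = 0.14) in REC. All 3 were lower in CH than in REC, at -2.20 ± 0.26 (adjusted p = 1.88e-05), -2.36 ± 0.35 (adjusted p = 0.000119) and -2.57 ± 0.33 (adjusted p = 4.20e-05). CH replicate 3 had the highest signal of the CH mice for all 3. This was not particular to the ring genes. The same mouse was also the highest in CH for Sdhd, Uqcc1, Uqcc3, Tfam and Cs, but not for Sdhc or Cox5a. Its T cell marker sum was also the highest, 4332 against 1089 to 1359 in the other CH mice. So were its B cell (11714 against 2067 to 5022), NK cell (2683 against 1331 to 1408) and monocyte sums (11923 against 3537 to 4645). Its erythroid, neutrophil and platelet sums were not. A link to the ring genes or to these other genes was not tested.

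**Figure D3:**
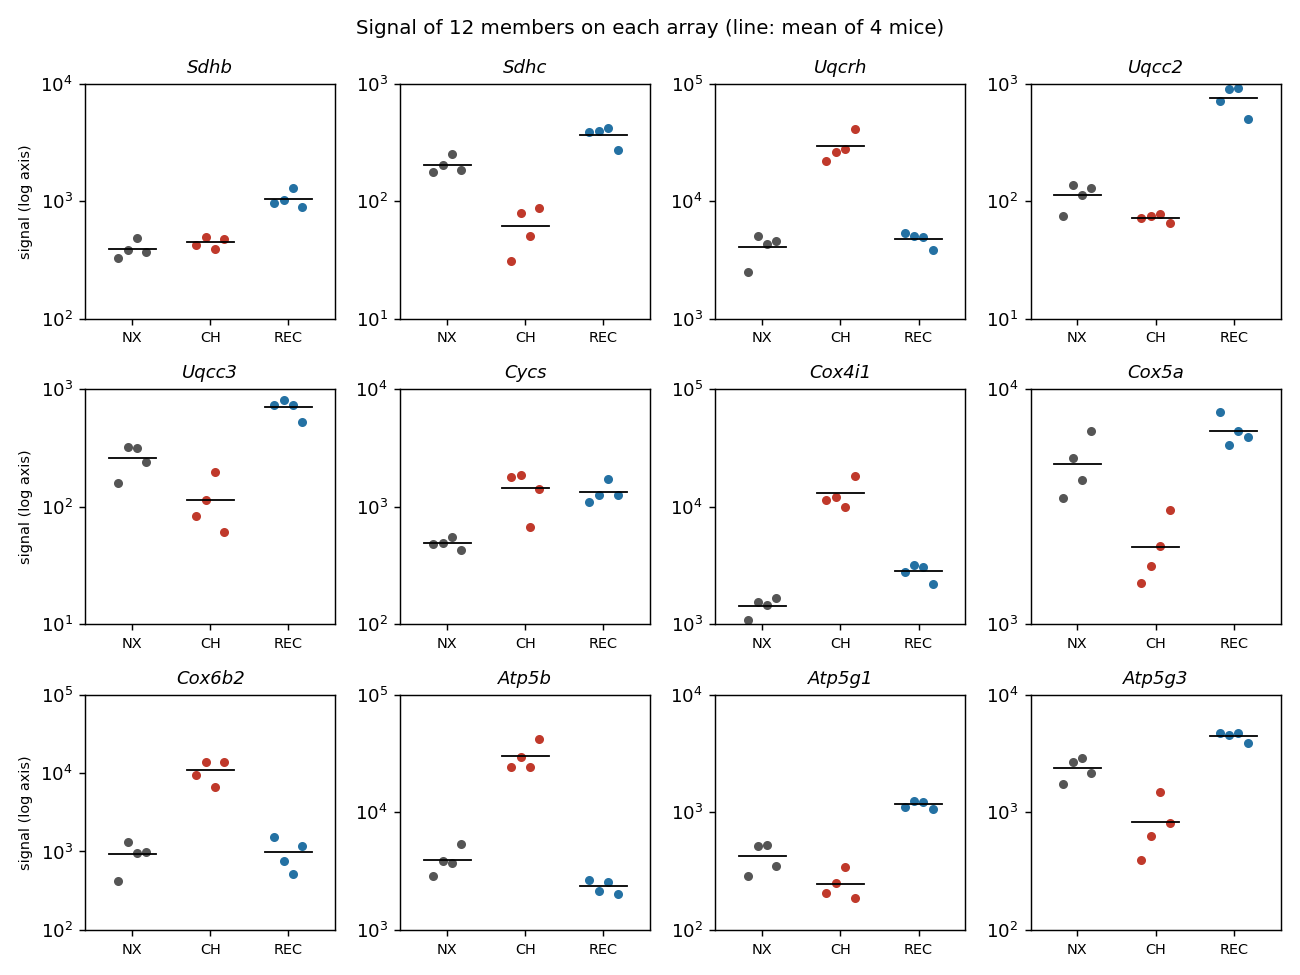
Signal of 12 members on each of the 12 arrays (points, log axis), with the mean of the 4 mice of each group as a line. Uqcrh, Cox4i1, Cox6b2 and Atp5b have their highest group mean in CH, Sdhc, Uqcc3, Cox5a, Atp5g1 and Atp5g3 their lowest in CH, and Sdhb and Uqcc2 their highest in REC.

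A difference between members within an array does not change when all signals of that array are multiplied by the same factor, apart from the 16 added to each signal. Quantile normalization is not such a factor, and the differences were not computed after it. These differences were chosen after the values were seen and are given as descriptions, relative to their mean in NX. The mean log2 signal of the 3 ring genes minus that of the other 14 ATP synthase genes was -3.35 to -1.94 on the CH arrays, -0.21 to 0.17 on the NX arrays and 0.30 to 0.49 on the REC arrays. The value of -1.94 was that of CH replicate 3. Cox5a minus Cox4i1 was -4.62 to -3.91 in CH, -0.23 to 0.28 in NX and -0.84 to -0.19 in REC. The 3 Uqcc genes minus the 8 Uqcr genes gave -3.53 to -1.93 in CH, -0.24 to 0.19 in NX and 0.42 to 0.63 in REC. The 4 complex II genes minus the 42 genes of complexes III, IV and V, without the Uqcc genes and Cycs, gave -1.81 to -1.39 in CH, -0.25 to 0.20 in NX and -0.11 to 0.14 in REC. In each of these, CH lay wholly below the other groups.

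**Figure D4:**
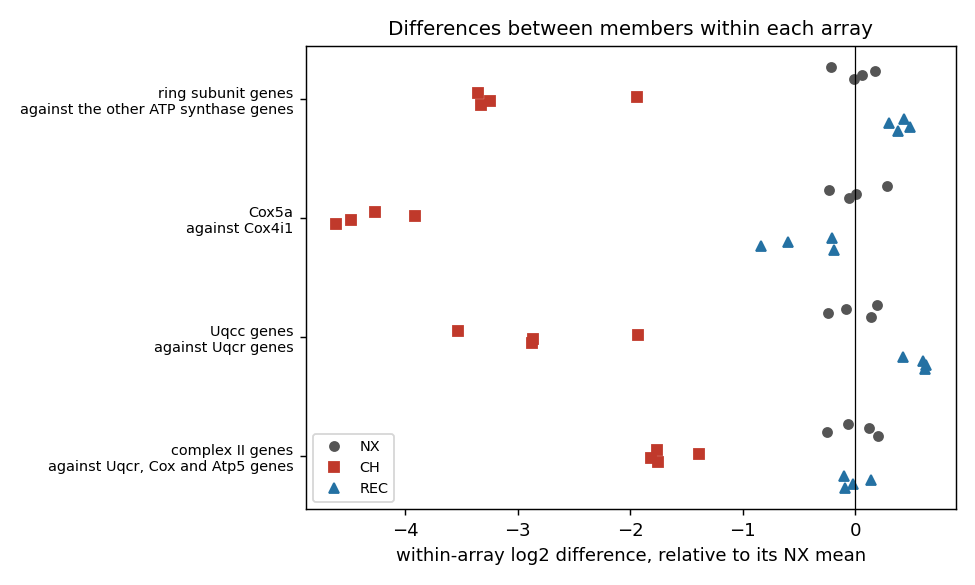
Differences between mean log2(signal + 16) of members within each array, relative to the NX mean of the same difference, for NX (grey circles), CH (red squares) and REC (blue triangles). All CH points lie left of all NX and REC points in the 4 differences, between -4.62 and -1.39.

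The start regions of the ring genes are shown beside those of Atp5b, Uqcrh and Cox5a, since these genes code for parts of the same machinery and, Atp5g1 excepted, were called in CH, the ring genes and Cox5a lower and the other 2 higher. Sequences are from RefSeq, build GRCm38.p6, from 250 bases before to 50 bases after the annotated start, 5′ to 3′ on the strand of the gene. Capitals mark matches on either strand to GCATGCGC (the core bound by NRF1), CCGGAAG (ETS factors), AAGATGGC (YY1) or ACGTG (the core of the hypoxia response element).
Atp5g1 (chr11:96075582-96075881, minus strand): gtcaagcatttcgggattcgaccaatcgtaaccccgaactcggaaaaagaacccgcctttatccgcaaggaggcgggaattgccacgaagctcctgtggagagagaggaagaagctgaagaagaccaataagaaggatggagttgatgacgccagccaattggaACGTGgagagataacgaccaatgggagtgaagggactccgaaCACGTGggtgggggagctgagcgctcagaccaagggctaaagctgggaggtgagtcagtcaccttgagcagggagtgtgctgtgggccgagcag
Atp5g2 (chr15:102670998-102671297, minus strand): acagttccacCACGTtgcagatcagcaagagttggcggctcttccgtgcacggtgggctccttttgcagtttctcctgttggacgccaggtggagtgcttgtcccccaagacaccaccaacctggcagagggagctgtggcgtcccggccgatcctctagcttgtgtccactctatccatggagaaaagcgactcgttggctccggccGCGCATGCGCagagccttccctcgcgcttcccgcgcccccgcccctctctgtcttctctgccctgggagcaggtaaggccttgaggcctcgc
Atp5g3 (chr2:73911277-73911576, minus strand): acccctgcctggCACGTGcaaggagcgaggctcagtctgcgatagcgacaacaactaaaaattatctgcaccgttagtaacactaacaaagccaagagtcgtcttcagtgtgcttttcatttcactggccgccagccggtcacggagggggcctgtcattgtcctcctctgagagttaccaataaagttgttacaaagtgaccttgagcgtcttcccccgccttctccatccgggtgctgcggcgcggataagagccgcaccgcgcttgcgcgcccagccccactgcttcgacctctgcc
Cox5a (chr9:57520982-57521281, plus strand): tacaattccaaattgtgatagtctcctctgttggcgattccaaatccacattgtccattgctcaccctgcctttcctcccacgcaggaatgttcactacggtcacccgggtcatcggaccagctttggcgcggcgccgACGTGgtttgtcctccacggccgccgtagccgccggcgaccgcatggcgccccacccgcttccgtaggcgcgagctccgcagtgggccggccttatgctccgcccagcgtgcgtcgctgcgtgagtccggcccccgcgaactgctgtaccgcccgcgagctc
Atp5b (chr10:128083057-128083356, plus strand): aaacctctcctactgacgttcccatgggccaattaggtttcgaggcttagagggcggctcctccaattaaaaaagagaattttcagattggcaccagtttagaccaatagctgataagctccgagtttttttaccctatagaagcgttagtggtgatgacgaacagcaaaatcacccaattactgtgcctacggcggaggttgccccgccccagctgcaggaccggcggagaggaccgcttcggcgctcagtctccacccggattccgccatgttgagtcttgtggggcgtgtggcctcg
Uqcrh (chr4:116075021-116075320, minus strand): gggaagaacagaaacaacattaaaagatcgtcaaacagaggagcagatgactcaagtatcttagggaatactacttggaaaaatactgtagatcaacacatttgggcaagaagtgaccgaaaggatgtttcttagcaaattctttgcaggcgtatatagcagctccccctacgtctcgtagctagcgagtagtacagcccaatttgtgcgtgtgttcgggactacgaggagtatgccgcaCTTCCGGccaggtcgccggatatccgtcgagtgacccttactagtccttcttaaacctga

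Overlapping matches were counted, and a stretch that reads the same on both strands, such as CACGTG, counted on each. Atp5g1 held 3 matches to ACGTG, Atp5g3 held 2, Atp5g2 and Cox5a 1 each, and Atp5b and Uqcrh 0. These 6 genes do not stand for all members. The annotated genes Cox5a and Atp5g3 reach upstream of the regions shown, to chr9:57517328 and chr2:73912464. Bases around those ends were not searched. Among members with a start region, ACGTG was held by all 5 called lower in CH, by 5 of 20 called higher (Uqcr11, Cycs, Atp5d, Atp5l and Atp5pb) and by 4 of 14 not called, and CCGGAAG by 0 of 5, 11 of 20 and 2 of 14. These counts were made after the calls were known and are not tested. Atp5g2 also held 2 matches to GCATGCGC and Uqcrh 1 to CCGGAAG. Start regions were matched for 39 of the 50 members. Of these, 8 (20.5%) held GCATGCGC, 13 (33.3%) CCGGAAG, 4 (10.3%) AAGATGGC and 14 (35.9%) ACGTG, where 3.05%, 9.93%, 3.19% and 21.8% of the start regions of 27025 genes did. A match is a run of letters and does not show that a factor binds there.

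Of the members, 32 have more than 1 probe set. No member had probe sets called in opposite directions in any of the 3 comparisons. Of the 22 such genes called in CH against NX, 17 had another probe set with the same call, as did 3 of 7 in REC against NX and 11 of 17 in CH against REC. Sdhd and Uqcr10 were called in CH, Atp5d and Atp5j2 in REC, and Cycs, Sdha and Sdhd in CH against REC at a probe set other than the brightest only. When the log2 signals of a gene's probe sets were averaged, the CH calls of Atp5g2, Cox8c, Cycs, Sdhc, Uqcc1 and Uqcrq and the REC calls of Atp5g1, Cycs, Uqcr10 and Uqcrq were lost, as were the calls of Atp5a1, Atp5g1, Atp5g2, Cox8c, Uqcc1 and Uqcrq in CH against REC. The same averaging added a lower call for Sdhd in both CH comparisons and a higher call for Atp5d in REC.

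The 13 members called higher in REC became 5 without REC replicate 2 or 3, 7 without NX replicate 1 or 4 and 8 without REC replicate 1. Atp5g1, Atp5j, Atp5md, Sdhb and Uqcc2 were called whichever array was left out, and these 5 were also those called with a pseudocount of 1. In CH against NX, 31 of 33 calls held whichever array was left out, with Cox8c and Uqcc3 the exceptions, and in CH against REC 24 of 26, with Cox8c and Atp5a1 the exceptions.

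Genes that build, feed or control these complexes were counted from lists of the pathway, chosen with earlier results of these data known. Beside them, over all genes, 9.08% were called higher and 19.5% lower in CH, and 2.5% and 1.79% in REC, while at an unadjusted p under 0.05 the shares were 17.8% and 28.4% in CH and 11% and 7.04% in REC. Lists of 4 to 6 genes are too short to set against such shares. For the assembly of complex II, 1 of 4 genes was lower in CH and 1 higher in REC. Sdhaf2, which attaches FAD to Sdha, read 382, 572, 452 and 479 in NX, 83.3, 85.9, 229 and 139 in CH and 805, 697, 689 and 808 in REC, at -1.79 ± 0.29 (adjusted p = 0.000398) in CH. Of 4 other complex III genes 1 was lower in CH, Bcs1l, the factor that inserts the Rieske protein, at -1.25 ± 0.28 (adjusted p = 0.0041). Cyc1 was not called in CH, at -0.65 ± 0.28 (adjusted p = 0.0993), and was called higher in REC, at 1.15 ± 0.28 (adjusted p = 0.0289). CH was below REC by call for Cyc1, at -1.80 ± 0.28 (adjusted p = 0.000176). Of 23 genes for complex IV assembly and copper delivery, 3 were higher and 3 lower in CH. At an unadjusted p under 0.05 they numbered 3 and 9. In REC 7 were higher and 0 lower, or 12 and 0 at that p. Pet100 and Higd2a, which act in the assembly of complex IV, were higher in CH at 2.11 ± 0.28 (adjusted p = 9.04e-05) and 1.96 ± 0.26 (adjusted p = 8.28e-05), as was the copper chaperone Cox17 at 1.21. Surf1, Cox15 and Coa3 were lower at -1.28, -1.55 and -1.42. Of 6 genes for assembly and regulation of ATP synthase, 1 of which is the member Atp5md, 2 were higher and 1 lower in CH. Atpif1, which inhibits the synthase when it runs in reverse, read 2721 to 5213 in NX, 13448 to 25645 in CH and 3329 to 4919.5 in REC, at 2.13 ± 0.28 (adjusted p = 9.32e-05) in CH. Atpaf1, which helps to put the beta subunit into the head, read 118, 169, 191 and 218 in NX, 31.5, 7.82, 55.5 and 35.2 in CH and 285, 313, 351 and 281 in REC, at -2.04 ± 0.31 (adjusted p = 0.000263) in CH.

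Among 12 regulators of respiratory genes, 0 were higher and 6 lower in CH, with the same 0 and 6 at an unadjusted p under 0.05, and none was called in REC, where 1 was higher and 1 lower at that p. Tfam, which packs and transcribes mitochondrial DNA, read 366, 481, 526 and 405 in NX, 47.5, 42.3, 201 and 80.3 in CH and 591, 779, 1076 and 588 in REC, at -2.28 ± 0.37 (adjusted p = 0.000418) in CH. Mterf3, a factor of mitochondrial transcription and ribosomes, was lower at -2.48 ± 0.40 (adjusted p = 0.00038). Of 14 citrate cycle genes, 2 were higher and 6 lower in CH, or 3 and 8 at an unadjusted p under 0.05. In REC 0 were called, and 7 were higher at that p. Cs, citrate synthase, read 1475, 1825, 2152 and 1499 in NX, 441, 347, 1299 and 451 in CH and 2128, 2140.2, 2215 and 2040.2 in REC, at -1.62 ± 0.34 (adjusted p = 0.00244) in CH, and Fh1, fumarase, was lower at -1.59 ± 0.26 (adjusted p = 0.000422). Of 14 genes of the mitochondrial outer membrane, carriers and membrane fusion, 0 were higher and 6 lower in CH. At an unadjusted p under 0.05 they numbered 1 and 11. In REC 3 were higher, or 8 at that p. Slc25a3, the phosphate carrier that supplies ATP synthase, was lower in CH at -1.65 ± 0.29 (adjusted p = 0.000803), and Opa1, which fuses inner membranes, at -1.74 ± 0.32 (adjusted p = 0.00106). The medians of these 3 lists in CH were -0.79, -0.81 and -0.77, beside 1.31 for the members and 0.05 for all genes. With dim probe sets left out, the median for all genes was -0.41.

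**Figure D5:**
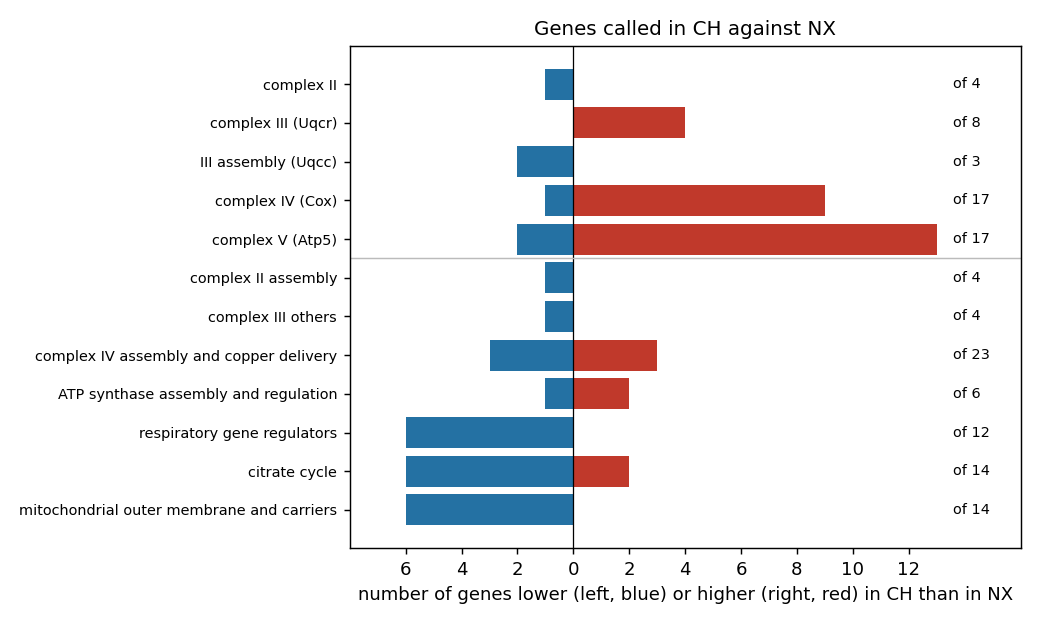
Number of genes called higher (red, right) or lower (blue, left) in CH than in NX, for the members by complex (above the line, Cycs left out) and for 7 lists of related mitochondrial genes (below it), with the number measured at the right. On the deposited scale, complexes III, IV and V hold mostly higher calls (4, 9 and 13), while the regulators and the outer membrane and carrier list hold 6 lower calls each and none higher.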

How the data were processed

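Whole blood RNA of 12 mice was measured on 12 Affymetrix Mouse 430 2.0 arrays. The values the authors deposited are intensities on a linear scale, 1 per probe set and array. The Methods name GC-RMA in Partek, whose log2 scale these values do not have, and no source used here gives the program behind the deposited values. The labels describe NuGEN amplification of small RNA amounts and the Methods a GeneChip One-Cycle kit, and which was used could not be settled. No batch, detection call or background value was available to block or filter on, so the number of arrays and the brightness limit the precision. Groups follow the sample titles, against a sample id label that reads normoxic for CH mice.

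Log2(signal + 16) of all 45101 probe sets was fitted with a mean per group over the 12 arrays in limma 3.58.1 under R 4.3.3, by lmFit and eBayes, leaving 9 residual degrees of freedom, with Benjamini-Hochberg adjustment over all probe sets. A gene was called at an adjusted p under 0.05 and at least 2-fold. Probe sets were named from the platform annotation: 34958 name 1 gene, 932 several and 9211 none. Each gene was read at its single-gene probe set of highest mean log2 signal, and levels of different probe sets were not compared. The fit was tested on simulated data. Replicates are different mice. Members, 8 pathway lists and 7 marker lists were chosen with earlier results of these data known. The list of mitochondrially encoded subunits had 0 members measured and is not analysed here. Named genes were up to 3 called members with the largest increase and 3 with the largest decrease per complex and comparison, the isoform groups, the complex II, Cycs and Uqcc genes, and up to 2 called genes per pathway list with the largest CH change. Other genes named to complete a count were chosen after their values were seen. In all, 25 alternatives were run. Figures were drawn with matplotlib 3.10.9 in Python 3.11.15.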

Additional observations from a re-analysis of the deposited data

Results flagged for a closer look

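Over 35 named members in 3 groups of 4 mice, 105 sets of values were examined for a lone high or low mouse, and 4 were found. Chance alone marks about 1 set in 20. Cox4i2 read 33.0 in NX replicate 1, where the other NX mice read 2.72 to 5.82, all of them dim. Cox6a1 read 7369 in REC replicate 1, where the other REC mice read 6102 to 6189. Uqcc1 read 67.3 in REC replicate 4, where the others read 122 to 133. Uqcrc2 read 12069 in CH replicate 4, where the others read 5152 to 5503.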

How the results depend on the processing

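The scale between arrays mattered most. With hybridization control scaling, members called higher and lower in CH against NX numbered 5 and 14 (median change -0.21), those higher in REC against NX 37 (median 1.55), and those higher and lower in CH against REC 2 and 33 (median -1.81). The medians of all genes on that scale were -0.84, 0.57 and -1.50, and the shares of all genes called on it are not given here. Of the 50 members, 21 turned from a positive to a negative change in CH against NX and 28 in CH against REC, and 5 from negative to positive in REC against NX. In CH against REC 3 calls reversed, those of Atp5a1 (-1.23), Atp5k (-1.18) and Uqcrq (-1.08). Among the genes chosen to be named, the ones called on either scale that turned in CH against NX were Atp5j (-0.12), Atp5md (-0.30), Cox6b1 (-0.19), Cycs (-0.14) and Sdhb (-1.34). In CH against REC they were Atp5l (-0.50), Atp5mpl (-0.33), Cox4i1 (-0.25), Cox6a1 (-0.14), Cox6a2 (-1.40), Cox6b1 (-1.98), Cox7a1 (-1.38), Cox7a2 (-0.085), Cox7a2l (-1.78), Cox8a (-0.29), Cycs (-2.36), Sdha (-1.84), Uqcr11 (-0.89), Uqcrc2 (-0.53), Uqcrq (-1.08), Pet100 (-1.21), Higd2a (-1.64) and Atpif1 (-0.23). Quantile normalization gave a median of 0.80 in CH against NX and -0.18 in CH against REC, with 7 members higher in the latter, and median centring a median of 0.080 there. Averaging a gene's probe sets gave a median of 0.89 in CH against NX and turned Pet100 to -0.29 in CH against REC. Members higher in REC numbered 5 with a pseudocount of 1 and 5 at an adjusted p under 0.01. The cause of these differences was not tested.

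Leaving out each array in turn gave 26 to 29 members higher and 5 to 7 lower in CH against NX (median 1.15 to 1.45), 5 to 15 higher and 0 lower in REC against NX (median 0.57 to 0.83), and 15 to 19 higher and 9 to 10 lower in CH against REC (median 0.28 to 0.44). In all 25 alternatives the calls of 6 of 33 members were kept in CH against NX (Atp5b, Atp5g3, Cox4i1, Cox5a, Cox6b2 and Uqcrh), 4 of 13 in REC against NX (Atp5j, Atp5md, Sdhb and Uqcc2) and 7 of 26 in CH against REC (Atp5b, Atp5g3, Cox5a, Cox6b2, Sdhc, Uqcc2 and Uqcc3). Mice of different groups share only a replicate number and were not treated as pairs. Of 12 correlations of same-numbered deviations, 3 were over 0.1 (range -0.20 to 0.44). All 3 were between CH and NX, at 0.436, 0.185 and 0.103 for replicates 1, 3 and 4, with -0.203 for replicate 2. Whether these arrays share a processing step was not tested. With the replicate number as a block, 33, 12 and 26 members were called, against 33, 13 and 26 without it.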
